A study of Mus musculus with 4 samples.

Results

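The Par complex genes are 7 rows of the deposited gene table, taken by symbol from 17915 rows: Pard6a, Pard6b and Pard6g, which encode the Par6 adaptors, Pard3 and Pard3b, which encode the Par3 scaffolds, and Prkci and Prkcz, which encode the atypical protein kinases C. The family was selected on the counts and TPM of Pard6g, which are much lower in tdTomato+ libraries, to ask whether its paralogs were higher there. Pard6g is therefore described here with no test. The other 6 genes entered by family, and the same comparison supplies their values.

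Bulk RNA sequencing gave 4 libraries of lung endothelial cells from mice of the genotype Cdh5-CreER;aSMA-LSL-Dre;NR1. All had been given tamoxifen 5 times and had lived for 6 weeks with transverse aortic constriction (TAC), a narrowing of the aorta, so no library came from an unoperated or untreated animal. Cdh5-CreER is a tamoxifen-inducible recombinase driven in endothelium, and Dre recombinase was placed at the alpha smooth muscle actin locus. ZsGreen+ cells (2 libraries) carried the endothelial mark alone, and tdTomato+ cells (2 libraries) had switched that locus on at some time. The labels call the 2 libraries of a group biological replicates without naming animals, and give neither age nor sex. The p-values therefore measure the spread between these libraries.

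Par3, Par6 and atypical PKC form a complex that marks 1 side of a polarised cell. Par6 holds the kinase in check and passes on signals from active Cdc42 or Rac, and Par3 brings the complex to cell junctions. In endothelium Par3 can bind VE-cadherin and junctional adhesion molecules, and the complex is known for its part in vessel lumen formation and junction assembly.

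Pard6g was the Par6 gene that set the groups apart. It was covered by 217 and 206 reads in tdTomato+ replicates 1 and 2 and by 723 and 1036 reads in ZsGreen+ replicates 1 and 2. Per length, as TPM (transcript shares that sum to 1000000 in a library), it stood at 6.57 and 5.66 TPM in tdTomato+ cells and at 20.4 and 29.8 TPM in ZsGreen+ cells. Both tdTomato+ libraries lay below both ZsGreen+ libraries. On counts scaled to a common library size (CPM) the log2 fold change, tdTomato+ over ZsGreen+, was -2.17 (SE 0.22), a level 4.5 times lower. Of all 13177 genes tested, 0.425% had a log2 fold change at or below that of Pard6g. In bulk RNA, fewer cells that express the gene and less of its RNA per cell cannot be told apart.

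Reads of the paralogs can be assigned only where their transcripts differ, so the longest exact stretch that members share was read from the protein-coding transcripts of GENCODE M21 (GRCm38). Each pair below is shown 5′ to 3′ with the shared run in capitals and coding bases around it in lower case. A run ends at the first mismatch, so it does not show where reads of paralogs were hardest to separate. Pard6a and Pard6b share at most 14 bases, in the first exon of both (chr8:105701789-105701802, plus strand, and chr2:168081345-168081358, plus strand).
Pard6a: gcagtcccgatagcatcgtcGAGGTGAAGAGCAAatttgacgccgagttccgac
Pard6b: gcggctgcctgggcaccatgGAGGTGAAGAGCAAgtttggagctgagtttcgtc
Pard3 and Pard3b share at most 17 bases, close to the start codon that opens both lines (chr8:127064366-127064382 and chr1:61639255-61639271, both plus strand).
Pard3: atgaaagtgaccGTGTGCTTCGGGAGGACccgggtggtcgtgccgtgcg
Pard3b: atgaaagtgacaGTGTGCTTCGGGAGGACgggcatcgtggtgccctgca
Prkci and Prkcz share at most 22 bases, in exon 10 of both transcripts (chr3:31038477-31038498, plus strand, and chr4:155286829-155286850, minus strand).
Prkci: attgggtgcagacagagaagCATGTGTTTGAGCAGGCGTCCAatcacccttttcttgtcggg
Prkcz: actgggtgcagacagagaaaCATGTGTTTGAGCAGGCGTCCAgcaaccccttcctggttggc

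The longest run between Pard6a and Pard6g was 25 bases and that between Pard6b and Pard6g 22 bases, both in coding sequence. The deposited estimated counts have up to 2 decimals. Those of all 7 members were exactly whole at that precision in all 4 libraries, whereas 16.2% to 17.9% of the values of a library were not.

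The other Par6 genes did not lie higher in tdTomato+ cells. Pard6a, an adaptor gene with a short transcript (NCBI Gene 56513, chromosome 8 of GRCm38, 105701148 to 105703494), stood at 18.9 and 15.1 TPM in tdTomato+ cells and at 24.6 and 15.6 TPM in ZsGreen+ cells. Its groups overlapped, with ZsGreen+ replicate 1 above the other 3 libraries. On CPM the log2 fold change of Pard6a was -0.43 (SE 0.36, edgeR adjusted p = 0.84), with a 95% interval of 0.412 to 1.33 for the fold. Its direction rested on 1 library, since it read 0.10 without ZsGreen+ replicate 1 (edgeR adjusted p = 0.936).

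Pard6b (NCBI Gene 58220, chromosome 2, 168081004 to 168101203) was the lowest member in every library, at 0.81 and 0.25 TPM in tdTomato+ cells and 0.52 and 0.66 TPM in ZsGreen+ cells. These levels rest on 29 and 10 reads against 20 and 25 reads, and the exact Poisson intervals of the extremes, 19.4 to 41.6 and 4.8 to 18.4, cover counting error only. The lowest and the highest Pard6b level both belonged to tdTomato+ libraries. Pard6b had a log2 fold change of -0.32 (SE 0.74, edgeR adjusted p = 0.962), and the interval for the fold, 0.239 to 2.71, is too wide to show or exclude a moderate change. Without tdTomato+ replicate 2 the log2 fold change turned to 0.30 (edgeR adjusted p = 0.999).

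**Figure D1:**
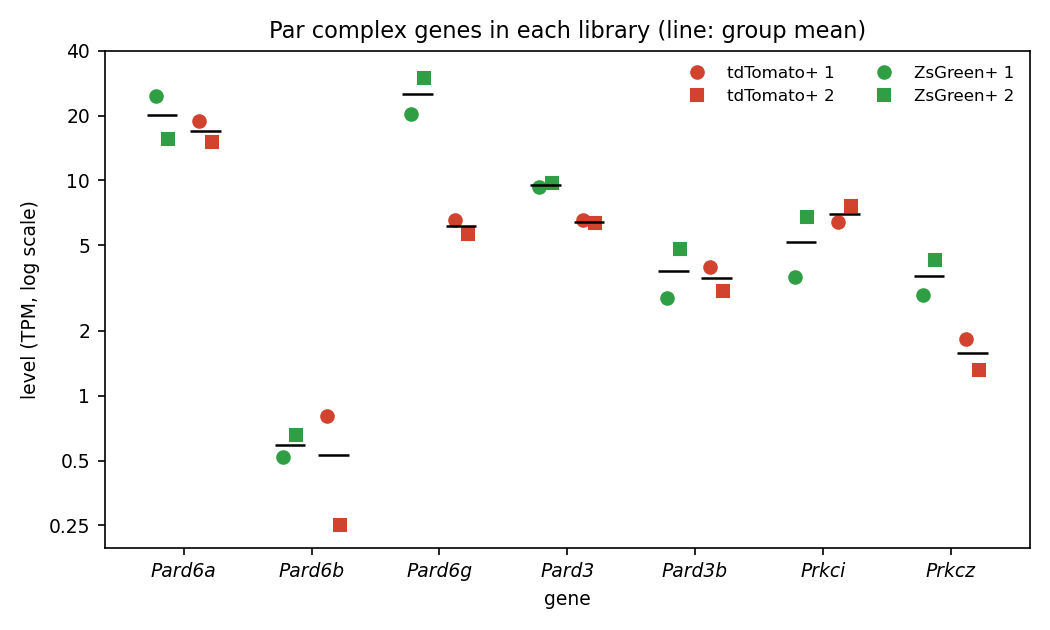
Level of each Par complex gene in TPM on a log axis, with 1 point per library and a line at the mean of each group of 2. The tdTomato+ points lie below both ZsGreen+ points for Pard6g, Pard3 and Prkcz, and the groups overlap for the other 4 genes.

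Summed over the 3 paralogs, the Par6 level was 26.2 and 21 TPM in tdTomato+ cells and 45.5 and 46 TPM in ZsGreen+ cells. The ratio of the group means was 0.516, and the lower Pard6g made up 85.7% of the difference. Since Pard6g chose the set, the sum is a description. The ZsGreen+ libraries reached nearly the same sum with different parts: Pard6g held 44.8% of it in replicate 1 and 64.7% in replicate 2, and Pard6a 54.1% and 33.8%. In tdTomato+ libraries Pard6a held 71.9% and 71.8% and Pard6g 25% and 27%. Pard6b held between 1.14% and 3.09% in any library.

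Added to the ZsGreen+ mean of Pard6a, 20.1 TPM, the difference in Pard6g between the group means would give 39 TPM, 1.94 times that mean. The measured ratio of the Pard6a group means in TPM was 0.845. Without ZsGreen+ replicate 1, which had the highest Pard6a level, the ratio needed was 2.52 and the measured one 1.09. These last 2 values rest on 1 ZsGreen+ library. The ratios needed are built on the Pard6g difference that chose the set, so they are a description and not a test. On the summed CPM scale, which does not divide by length and so gives the short Pard6a transcript less weight, the Par6 ratio was 0.351.

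**Figure D2:**
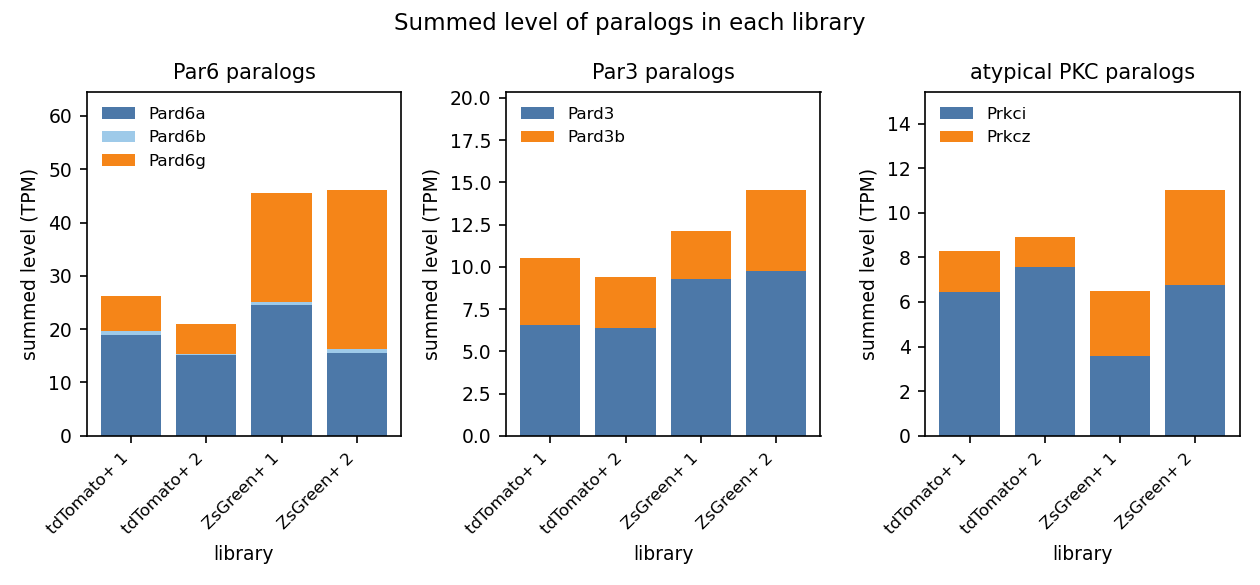
Stacked TPM of the Par6, Par3 and atypical PKC paralogs in each of the 4 libraries, with 1 bar per library. The Par6 sums are 21 to 26.2 TPM in tdTomato+ and 45.5 to 46 TPM in ZsGreen+ libraries, while the atypical PKC sums of the groups overlap.

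Of the kinases, Prkcz was lower in both tdTomato+ libraries and Prkci overlapped. Prkcz, atypical PKC zeta (NCBI Gene 18762, chromosome 4, 155260118 to 155361428), was covered by 82 and 67 reads in tdTomato+ cells and by 146 and 206 reads in ZsGreen+ cells. This came to 1.84 and 1.32 TPM against 2.95 and 4.25 TPM. The log2 fold change was -1.35 (SE 0.35), 2.56 times lower, with a 95% interval from -2.18 to -0.53 for this gene alone. Over all genes tested it did not pass (edgeR adjusted p = 0.257), and it passed in 1 of 12 alternatives, with the replicate number as a block (edgeR adjusted p = 0.00514), a fit that called 7.09% of all genes tested.

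Prkci, atypical PKC iota/lambda (NCBI Gene 18759, chromosome 3, 30995742 to 31052740), stood at 6.43 and 7.57 TPM in tdTomato+ cells and at 3.56 and 6.76 TPM in ZsGreen+ cells. ZsGreen+ replicate 1 lay below the other 3 libraries, and the groups overlapped. Prkci was the only member with a log2 fold change above 0, at 0.32 (SE 0.30, edgeR adjusted p = 0.867; 95% interval for the fold 0.759 to 2.05). The sum of both kinases was 8.27 and 8.89 TPM in tdTomato+ cells and 6.51 and 11 TPM in ZsGreen+ cells, a ratio of 0.979 with overlapping groups. Within that sum Prkcz took 22.2% and 14.8% in tdTomato+ cells and 45.3% and 38.6% in ZsGreen+ cells.

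Prkcz has an inner start site known from brain that yields a kinase form without the regulatory part. The table lists 10 transcript models for the gene and gives 1 value for all, so this form was not separated. The length that links reads to FPKM (fragments scaled by length and depth) was 3.99 to 4.15 kb for Prkcz over the libraries. Its highest value was 1.04 times the lowest, as for Pard3, and the ratio was 1.03 or less for the other members.

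Of the Par3 scaffold genes, Pard3 (NCBI Gene 93742, chromosome 8, 127063381 to 127612286), which recruits the complex to junctions, stood at 6.53 and 6.35 TPM in tdTomato+ cells and at 9.28 and 9.75 TPM in ZsGreen+ cells. The replicates lay close together and the groups did not overlap. The log2 fold change of Pard3 was -0.70 (SE 0.20), 1.63 times lower, with a 95% interval from -1.18 to -0.23 for this gene alone, and it did not pass over all genes tested (edgeR adjusted p = 0.315).

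Pard3b (NCBI Gene 72823, chromosome 1, 61638667 to 62642284), a Par3 relative, stood at 3.97 and 3.05 TPM in tdTomato+ cells and at 2.83 and 4.78 TPM in ZsGreen+ cells. Both extremes were ZsGreen+ libraries. Pard3b had a log2 fold change of -0.24 (SE 0.27, edgeR adjusted p = 0.893; 95% interval for the fold 0.546 to 1.31), and without ZsGreen+ replicate 2 it was 0.04 (edgeR adjusted p = 0.962). The summed Par3 level was 10.5 and 9.4 TPM in tdTomato+ cells and 12.1 and 14.5 TPM in ZsGreen+ cells, a ratio of 0.747.

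**Figure D3:**
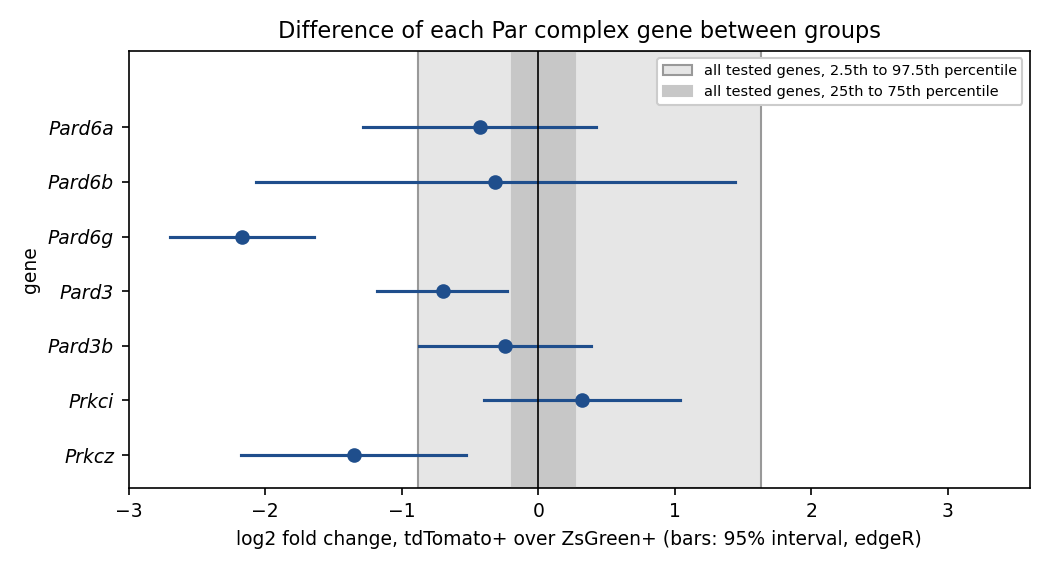
Log2 fold change of each Par complex gene with its 95% interval from edgeR (points and bars), over bands for all 13177 genes tested (the middle 50% and the middle 95%). Pard6g at -2.17 and Prkcz at -1.35 lie left of the wider band, which starts at -0.88, and only Prkci lies right of 0.

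All 7 members passed the filter on low counts. Of the 6 members other than Pard6g, edgeR called 0 at an adjusted p under 0.05, where 0.304% of all genes tested were called in either direction, 0.167% higher and 0.137% lower in tdTomato+ cells. At an unadjusted p under 0.05 there were 2 of the 6, Pard3 and Prkcz, and DESeq2 called 0 of the 6 against 2.44% of all genes it tested. Across genes the unadjusted share was 8.77%. The median log2 fold change of the 6 was -0.37 and 5 of them lay below 0, whereas the median of all genes was -0.01 and 50.7% lay below 0. Groups did not overlap, with tdTomato+ lower, for 3 of the 7 members, and for 18.2% of all genes tested; the share for tdTomato+ higher was 19.9%, and no member was among those. These counts come from the comparison that chose Pard6g, and nothing is read from them.

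The order of the levels per length differed between the groups in the place of Pard6g, the gene that chose the set. Apart from Pard6g, only Prkci and Pard3 changed places, and they overlapped in tdTomato+ cells. The order is therefore a description, as is the place of Pard6g among all genes. In ZsGreen+ cells the means ran from Pard6g (25.1 TPM) and Pard6a (20.1 TPM), which overlapped, through Pard3 (9.52 TPM), Prkci (5.16 TPM), Pard3b (3.81 TPM) and Prkcz (3.6 TPM) to Pard6b (0.59 TPM). Prkci overlapped with Pard3b, and Pard3b with Prkcz. In tdTomato+ cells Pard6a led alone at 17 TPM. Prkci (7 TPM), Pard3 (6.44 TPM) and Pard6g (6.12 TPM) followed, each overlapping with the next, and Pard3b (3.51 TPM), Prkcz (1.58 TPM) and Pard6b (0.53 TPM) stood apart below them. Pard6g (NCBI Gene 93737, chromosome 18, 80046830 to 80119640) lay above 75% of all genes of the table in ZsGreen+ cells and above 51.3% in tdTomato+ cells.

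Of 5 ratios between partners 3 contain Pard6g, which chose the set, and all 5 are given as a description. Pard6g over Pard6a was 0.348 and 0.376 in tdTomato+ cells and 0.828 and 1.91 in ZsGreen+ cells. Prkcz over Prkci was 0.286 and 0.174 against 0.829 and 0.629. Summed Par6 over summed atypical PKC was 3.17 and 2.36 in tdTomato+ cells and 6.98 and 4.18 in ZsGreen+ cells. The ratio of summed Par6 to summed Par3 was 2.5 and 2.23 against 3.75 and 3.17. The groups did not overlap in these 4 ratios, of which only Prkcz over Prkci is free of Pard6g, and overlapped in that of Pard3b to Pard3, at 0.608 and 0.48 against 0.305 and 0.49. The ratios are of RNA, not of protein.

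Other genes of cell polarity gave no call over all genes tested. Of 63 tested from 7 lists, edgeR called 0 higher and 0 lower, and 9 had an unadjusted p under 0.05 (4 higher, 5 lower), where the share over all genes was 8.77%. DESeq2, which called 2.44% of all genes, called 3 of the 63, which were Tiam1, Jam2 and Prkcq. With the replicate number as a block, a fit that called 7.09% of all genes, 6 were called, among them those 3, Prkce and Prkcd. The median log2 fold change of the 63 was -0.11. Groups did not overlap for 41.3% of them, where the share over all genes was 38.1%. With tdTomato+ lower there were 17 of the 63, and with tdTomato+ higher 9. Over all genes tested those shares were 18.2% and 19.9%.

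The apical Crumbs complex, which works beside Par6 through Pals1 (Mpp5), had 3 of 8 members tested, with log2 fold changes from -0.07 to 0.13. Mpp5 stood at 0.10 (SE 0.33) and the adaptor Lin7c at -0.07 (SE 0.39). The basolateral Scribble complex, which opposes the Par complex, had 7 of 8 members tested, from -0.31 for the scaffold Dlg1 (SE 0.28) to 0.35 for Dlg3 (SE 0.61). In these lists no gene had an unadjusted p under 0.05.

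Par1 and Par4 kinases and 14-3-3 proteins, which keep Par3 off the opposite side of the cell, had 15 of 16 members tested with a median log2 fold change of -0.15. The 14-3-3 gene Ywhae stood at -0.23 (SE 0.20) and the Par4 cofactor Cab39 at -0.28 (SE 0.26). Of the partners and regulators of atypical PKC, 8 of 9 were tested, with a median of -0.02. The fate determinant Numb, a substrate of the kinase, stood at -0.30 (SE 0.27) and the adaptor Sqstm1 at -0.19 (SE 0.20). Neither list held an unadjusted p under 0.05.

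Small GTPases and exchange factors had 10 of 11 members tested, a median of -0.23 and 3 lower at an unadjusted p under 0.05. Tiam1, a Rac exchange factor that binds Par3, was read at 17.6 and 21.6 CPM in tdTomato+ against 39.5 and 82.9 CPM in ZsGreen+ libraries. Its groups did not overlap, and the ZsGreen+ libraries lay far from each other. The log2 fold change of Tiam1 was -1.65 (SE 0.36, edgeR adjusted p = 0.18), and it passed without ZsGreen+ replicate 1 (edgeR adjusted p = 0.00772). That fit called 2.21% of genes and holds 1 ZsGreen+ library, which is assumed to vary like the tdTomato+ pair. The endothelial GTPase gene Rhoj had a log2 fold change of -0.53 (SE 0.19, edgeR adjusted p = 0.448), and the Cdc42 effector Cdc42ep1 one of -0.47 (SE 0.20, edgeR adjusted p = 0.56).

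Of the junction partners, all 13 were tested, with a median of -0.25. Jam2, a junctional adhesion molecule whose family binds Par3, was read at 295 and 359 CPM in tdTomato+ against 173 and 172 CPM in ZsGreen+ libraries, with both tdTomato+ libraries higher. On the log2 scale it differed by 0.93 (SE 0.19, edgeR adjusted p = 0.161). The next gene by p, the nectin Nectin3 (-0.74, SE 0.47), had an unadjusted edgeR p of 0.157.

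The other 7 PKC isoforms, which unlike the atypical ones respond to diacylglycerol, spread most widely. The median log2 fold change of the 7 was 0.63, with 4 above 0. At an unadjusted edgeR p under 0.05, 3 were higher and 2 lower in tdTomato+ cells. Prkcq, PKC theta, was read at 4.51 and 2.89 CPM in tdTomato+ against 12.1 and 15.1 CPM in ZsGreen+ libraries (log2 fold change -1.88, SE 0.36, edgeR adjusted p = 0.143). Prkce was lower as well, at -0.76 (SE 0.22, edgeR adjusted p = 0.332), whereas Prkcd, at 0.89 (SE 0.28, edgeR adjusted p = 0.369), was on the other side. None of these 3 passed over all genes with edgeR without a block. Their groups did not overlap, where the share over all genes was 38.1% in either direction. The 3 were named for a small p, so this is a description.

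**Figure D4:**
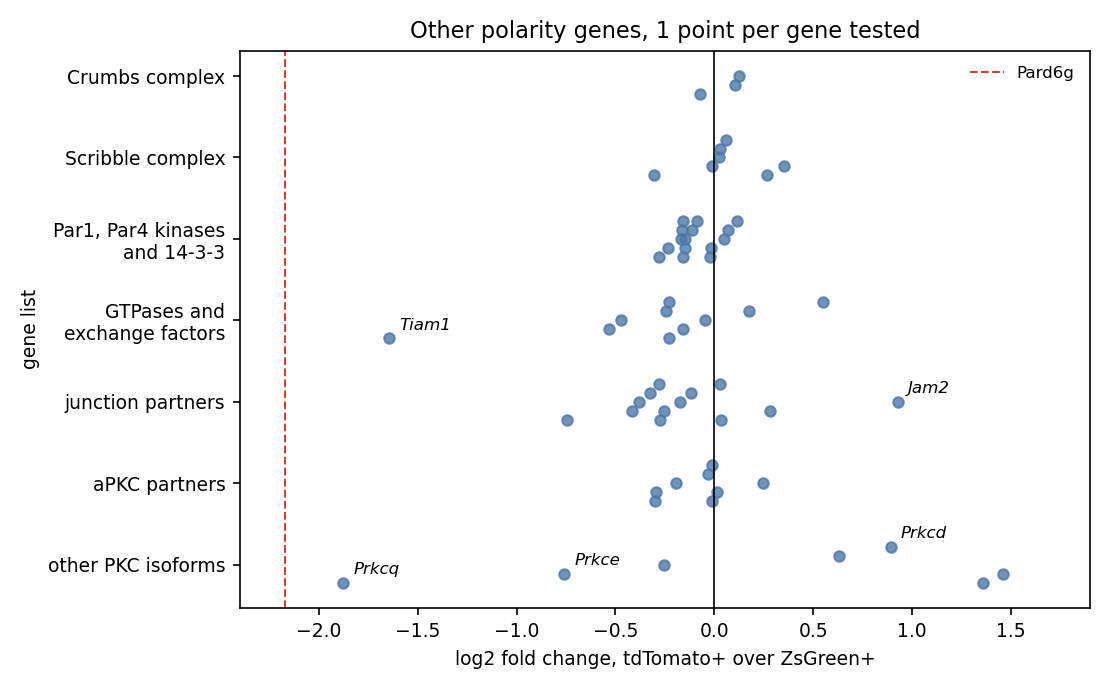
Log2 fold change of other polarity genes by list, with 1 point per gene tested and the 5 genes of smallest p named. The points of the Crumbs and Scribble lists lie between -0.31 and 0.35, those of the PKC isoforms between -1.88 and 1.46, and none reaches the dashed line of Pard6g at -2.17.

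The genes whose pattern over the 4 libraries was most like that of Pard6g were found by the distance between their log2 CPM values, each centred on its own mean, among 11826 genes that averaged 1 CPM or more. The nearest were Ttyh1 (distance 0.272), Cyp8b1 (0.282), Krt80 (0.308), Pde8b (0.312) and Prx (0.42). Ttyh1 is a membrane protein of the tweety family and Cyp8b1 a sterol hydroxylase, and neither passed 5.75 CPM in any library. Pde8b was lower still, with 11 and 10 reads in tdTomato+ against 31 and 54 reads in ZsGreen+ libraries. The patterns of Ttyh1, Cyp8b1 and Pde8b thus rest on few reads. Krt80, a keratin, was read at 131 and 94 CPM in tdTomato+ against 455 and 474 CPM in ZsGreen+ libraries. Prx, periaxin, stood at 31.7 and 28.6 CPM against 90.4 and 112 CPM. It is also the 1 capillary marker called lower below, so both mentions are of the same gene. Of the other members Prkcz came nearest, at rank 51 (distance 0.834), then Pard3 at rank 253, and Prkci lay farthest at rank 9230. With 4 libraries in 2 groups, many genes that differ by a like fold share this pattern.

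**Figure D5:**
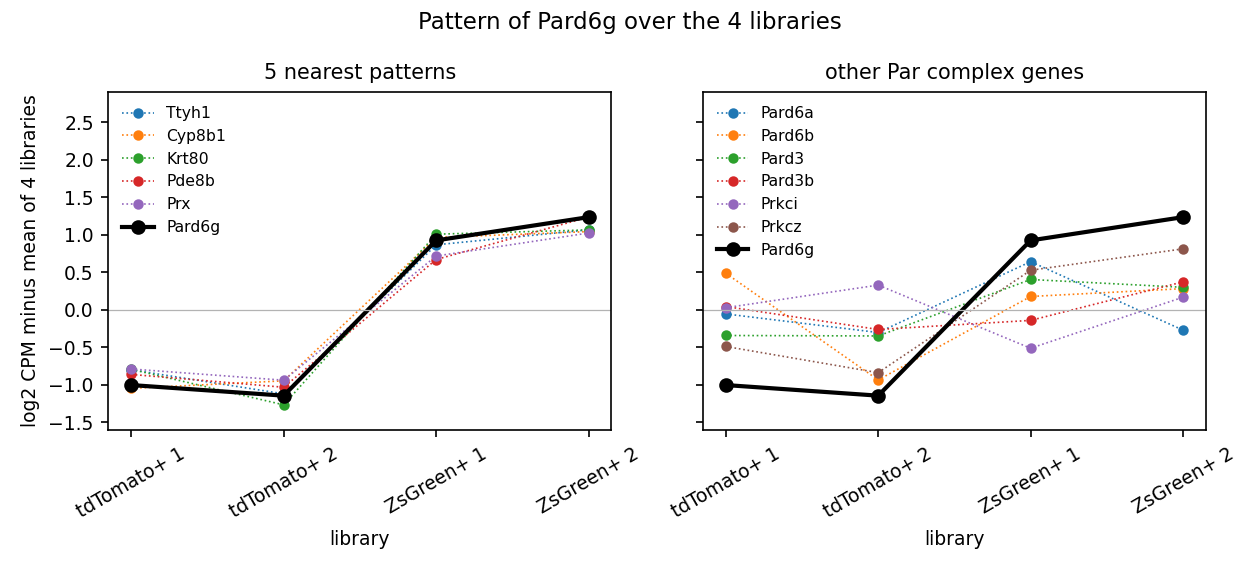
Log2 CPM of Pard6g (black) in each of the 4 libraries minus its mean over them, beside the 5 nearest genes (left) and the other Par complex genes (right). Lines only join the values of a gene. The 5 nearest genes follow Pard6g in all libraries, and Prkcz follows it with a smaller range.

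The libraries held 17050673 to 18574737 counts, and the 10 endothelial markers were present in every library. Their summed levels were 9565 and 9710 CPM in tdTomato+ and 10799 and 12561 CPM in ZsGreen+ cells, so both tdTomato+ sums were lower. Of the 10 endothelial markers 2 had a log2 fold change above 0, the median was -0.16, and edgeR called 0. Most lymphatic and capillary markers lay lower in tdTomato+ cells, and most arterial and venous ones higher. A log2 fold change above 0 was found for 1 of the 8 lymphatic, 0 of the 12 capillary and 9 of the 12 arterial and venous markers. Of all genes tested 50.7% lay below 0. The summed levels of the lymphatic and of the capillary markers overlapped between the groups. Of 8 lymphatic markers 4 were called lower in tdTomato+ cells, where 0.137% of all genes tested were called lower and 0.167% higher. The median log2 fold change of the 8 was -2.21, with summed levels of 720 and 1015 against 982 and 1282 CPM. Of 12 capillary markers 1 was called lower (median -1.24; 5189 and 5528 against 7207 and 5464 CPM), and of 12 arterial and venous markers 1 was called higher (median 1.31; 4424 and 5351 against 2602 and 2319 CPM). Of the markers of other cells edgeR called none, but most lay higher in tdTomato+ cells. Over all genes tested, 8.77% had an unadjusted edgeR p under 0.05 in either direction. The 12 epithelial ones had a median log2 fold change of 0.94, 10 above 0 and 4 higher at an unadjusted p under 0.05, and summed to 444 and 535 against 279 and 535 CPM. For the 12 of fibroblasts and pericytes the median was 1.03, with 10 above 0, 6 higher and 1 lower at that p, and sums of 215 and 375 against 82.4 and 105 CPM. For the 12 of leukocytes it was 1.05, with 12 above 0 and 3 higher, and sums of 4353 and 2212 against 2500 and 540 CPM. No marker of these lists was at 0 in any library. The part of these cells in the levels of the Par complex genes was not tested.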

How the data were processed

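RNA of sorted cells was amplified from little input before library preparation, per the labels' protocols, and no molecular identifiers are named. The submitters' processing notes list RSEM 1.3.1, DESeq2 1.4.5 and the builds mm10 and GRCm38. No source used here gives the aligner, the read length or strandedness, so overlapping or antisense reads cannot be told apart. The estimated counts, TPM and FPKM are those the authors deposited, 1 column per library. A normalized count signal is deposited too and was not used.

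Estimated counts were rounded and tested with edgeR 4.0.16 (R 4.3.3), using its two-sided quasi-likelihood test, TMM factors and filterByExpr with a minimum count of 10. Calls have a Benjamini-Hochberg adjusted p under 0.05 over 13177 genes. CPM were computed on library sizes times TMM factors. With 2 against 2 libraries an exact two-sided permutation p cannot go below 0.333, so none is given. On data simulated for these 13177 genes, edgeR called 27.3% of 2-fold and 92.7% of 4-fold changes in genes that averaged at least 5 CPM. The simulated libraries vary independently, whereas same-numbered libraries of the data deviated together (correlation 0.51). These shares therefore need not hold for the data. Gene spans are those of the table and of RefSeq for GRCm38.

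Members and lists were chosen with earlier results of these data known. Named are the 7 members, up to 4 genes per polarity list by smallest p among those averaging 1 CPM or more, and the 5 genes nearest in pattern to Pard6g, leaving out predicted, RIKEN, mitochondrial, ribosomal, immunoglobulin and T cell receptor names; a few genes that this rule names are not reported here. The results were recomputed with RLE or upper quartile factors, DESeq2 1.42.0, other filters, limma 3.58.1 on log2 TPM, a replicate block and leaving out each library, which leaves 1 group with a single library assumed to vary like the other pair.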

Additional observations from a re-analysis of the deposited data

How the results depend on the processing

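The log2 fold change of Pard6g lay between -2.32 and -1.85 in 12 alternatives, from -2.32 to -2.01 without 1 library. It was -1.85 and -2.0 with limma on log2 of TPM plus 1 and plus 0.1, a scale on which the median of all genes was 0.12 and 0.13. Pard6g chose the set by this difference in the same libraries, so these values are a description. Of the other members 0 were called in 11 of 12 alternatives, and 1, Prkcz, with the replicate block. The count of called polarity genes, 0, became 3 with DESeq2, 6 with the replicate block and 0 to 1 without 1 library. The number of genes called, 40, was 330 with DESeq2, 128 without a filter on low counts, 61 with at least 1 CPM in all 4 libraries, 22 on log2 of TPM plus 0.1, 934 with the replicate block, and 4 (without tdTomato+ replicate 2) to 304 (without ZsGreen+ replicate 1) without 1 library; the cause was not tested. Same-numbered libraries deviated together (correlation 0.51 over 10360 genes), but the labels give the number no meaning. Left out 1 at a time, the libraries reversed Pard3b (-0.47 to 0.04), Pard6a (-0.82 to 0.10) and Pard6b (-1.32 to 0.30). They also reversed the ratio of the summed atypical PKC level (0.779 to 1.32). The summed Par6 ratio was 0.351 on CPM, where length is not divided out. Pard6b was too low for the TPM tests and the stricter filter. Depth limits Pard6b most, at 10 to 29 reads.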
